A study of Homo sapiens with 13 samples.

Results

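The replication-dependent histone genes encode the bulk histones H1, H2A, H2B, H3 and H4, which package newly copied DNA. Their members were taken by gene name: names beginning with H2AC, H2BC, H3C or H4C and a number, or H1-1 to H1-6, with pseudogenes left out. This gave 66 of 61541 human genes listed, namely 6 H1, 16 H2A, 17 H2B, 13 H3 and 14 H4 genes. Of these, 55 lie in the histone clusters of chromosome 6 and 11 on chromosome 1. These mRNAs are known for an unusual life cycle. They are made mainly in S phase, when DNA is replicated, they end in a conserved stem-loop instead of a polyA tail, and they are degraded rapidly when replication stops. Stem-loop binding protein (SLBP) holds that stem-loop from processing to translation and decay.

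The cells were RUES2, an established human embryonic stem cell line, carrying a GFP::SMAD4 fusion in every library. In the time series, cells received 100 ng/mL BMP4, a ligand that drives pluripotent cells toward amnion, with 5 uM IWP2, a blocker of Wnt secretion, and ROCK inhibitor. The 0 h time point has 2 libraries, and the times 4, 12, 20, 28 and 42 h have a single library, all depleted of ribosomal RNA, extracted with the RNAqueous kit and here called total RNA. The labels of the 0 h libraries carry the treatment as well as the time 0 h. In the dose series, cells were lysed at 5 h after the same BMP4, IWP2 and ROCK inhibitor mixture with 0, 10, 30, 100 or 300 nM LDN-193189 (LDN), a BMP receptor kinase inhibitor, or after mTeSR medium alone (untreated). These 6 polyA-selected libraries, extracted with the RNeasy kit, had 1 sample per condition. Levels are given as CPM, counts scaled to the library total, or as deposited FPKM where genes of different length are compared.

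Total counts ranged from 37956244 to 71331540 in total RNA and from 15600645 to 33989489 in polyA RNA. A level of 3 counts, the upper limit that a count of 0 allows, was at most 0.079 CPM in total RNA and 0.192 CPM in polyA RNA, for counting error only. The mitochondrial share was 7.60% in 0 h replicate 1 and 4.29% in replicate 2. The summed pluripotency markers averaged 8145 ± 299 CPM (SD, n = 2) in the 0 h libraries against 3707 CPM in the 42 h library, and 5 of 7 fell in the trend test described below. The summed amnion markers averaged 24.4 ± 3.23 (SD, n = 2) and 4897 CPM, and 5 of 8 rose. The primitive streak, endoderm and neural lists never exceeded 4.31, 3.27 and 1.57 CPM in total RNA. In bulk RNA, fewer cells in S phase and less histone mRNA per S-phase cell cannot be told apart.

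The stem-loop was present in all 66 members, between 23 and 68 bases after the stop codon. It is shown here because it defines the class and differs between families. Each line gives 26 bases 5′ to 3′ on the gene's strand, in GRCh38, with the 6-base-pair stem and 4-base loop in capitals:
H1-2: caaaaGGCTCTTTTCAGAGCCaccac
H2BC12: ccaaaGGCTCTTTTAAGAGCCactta
H2AC20: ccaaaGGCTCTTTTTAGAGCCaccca
H2AC15: aaaaaGGTTCTTTTCAGAGCCaccta
H4C5: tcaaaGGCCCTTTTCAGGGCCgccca
H4C12: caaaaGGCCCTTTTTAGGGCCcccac
They lie at chr6:26055739-26055764, chr6:27146361-27146386, chr1:149887386-149887411, chr6:27837880-27837905, chr6:26204996-26205021 and chr6:27831173-27831198, at the 3′ end of each gene; the H2AC20 and H4C5 lines are on the plus strand and the other 4 on the minus strand. There were 10 distinct stem-loops. The form of H1-2 was shared by 38 members, and the forms of H2BC12 and H4C5 by 9 each. The form of H4C12 was held by 4 H4 genes, and that of H2AC20 by this gene alone. The stem began with GGCCC in 14 of 14 H4 genes and in 0 of the 52 others. Among 12 replication-independent histones searched the same way, 1 held such a stem-loop, H2AX, whose transcripts are known to end either way.

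The share of counts on the members depended on how the RNA was prepared. In total RNA they took 0.785% and 1.04% of counts in the 2 libraries at 0 h and 0.736% to 0.955% at later times. In polyA RNA they took 0.0120% to 0.0130%, and the exact 95% binomial interval of the lowest library was 0.0116% to 0.0124%. The median share was 64.7 times higher in total RNA. Preparation, extraction kit and experiment cannot be told apart here, so the values stand side by side without a test.

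**Figure D1:**
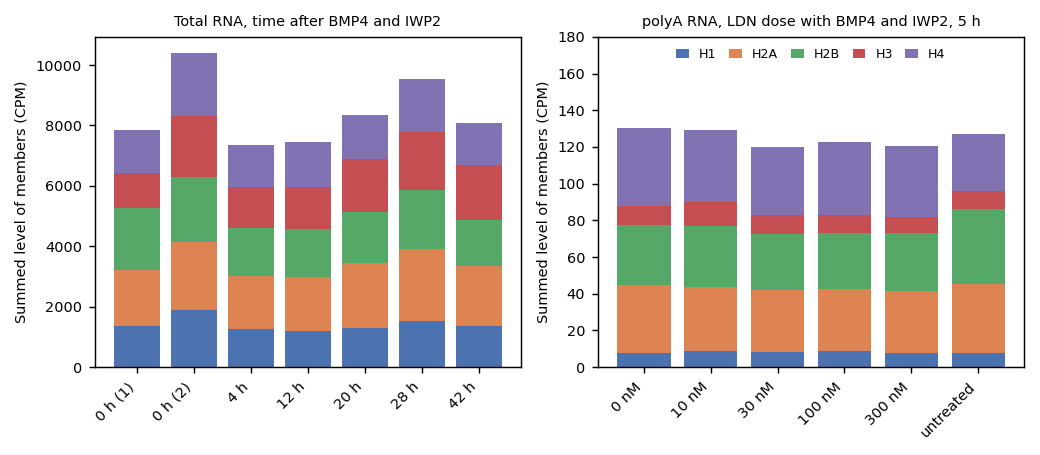
Summed CPM of the members in each library, stacked by family, for the total RNA time series (left, up to 10414 CPM) and the polyA dose series (right, all between 120 and 130 CPM). The vertical scales differ, and each bar is 1 library.

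Most members nearly disappeared from polyA RNA, and some did not. Of 61 members with a 0 h mean of at least 1 CPM, 46 had a polyA level under 1% of their total RNA level, and the median was 0.498%. Over the 15621 genes at that level the median was 97.8%, and 1.14% of them were under 5%, against 55 of the 61 members. The replication-independent histones, which carry polyA tails, ranged from 84.6% to 276%. H1-5, a linker histone, averaged 850 CPM at 0 h and 0.501 CPM in polyA RNA. H2AC6, a core H2A gene, averaged 162 and 21.0 CPM, which is 12.99%. H2BC5 kept 10.2%, H2BC11 7.82%, H3C6 4.33% and H1-2 3.44%.

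The retained members overlapped with those whose annotation reaches beyond the stem-loop. In GENCODE 44, 14 members have a transcript that ends over 200 bases past it. Of these, 10 hold the polyA signal AATAAA in the last 50 bases, against 2 of the other 52. In those 52 the last 50 bases take in the stem-loop itself, so the counts are of unlike regions. The 13 such members with enough signal had a median of 2.75% and a range of 0.146% to 12.99%. The 48 others had a median of 0.328% and a range of 0% to 15.4%. H4C11, at the top, is near-identical to H4C12 at 0.848%. H3C14, at 0% like H1-1, is near-identical to H3C15 at 0.239%. The single values of such partners depend on how the estimates split shared reads. Of the 10 members with the highest polyA share, 7 had an extended transcript. The other 3 were H2BC12 at 4.47%, H1-2, and H4C11 at 15.4%, which holds AATAAA close to its stem-loop and shares reads with H4C12 as described below. H2BC4 has the longest annotated extension, 37155 bases, and H1-6 and H4C3 lie within its span.

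**Figure D2:**
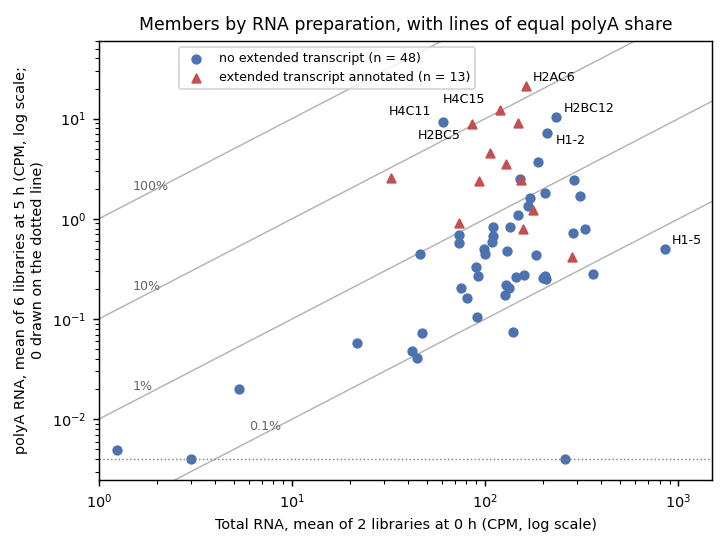
Mean polyA level over 6 libraries against mean total RNA level over the 2 libraries at 0 h for 61 members, on log axes, with grey lines of equal polyA share. Triangles, the 13 members with an extended transcript, lie mostly nearer the upper lines than the 48 circles, with H2AC6 highest in polyA RNA, and H1-1 and H3C14 at 0 on the dotted line.

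Over time the members did not move together in 1 direction. Their summed level was 7852 and 10414 CPM in the 0 h libraries and then 7363 (4 h), 7447 (12 h), 8340 (20 h), 9546 (28 h) and 8080 CPM (42 h). The later values at 20, 28 and 42 h lay between the 0 h libraries, and those at 4 and 12 h lay just below both. At 42 h the sum was 0.18 lower on the log2 scale than the 0 h mean. With trimmed-mean (TMM) scaling it was 0.06 higher. The 0 h libraries differed by more: 54 of 61 members were higher in replicate 2, with a median ratio of 1.22 and a range of 0.792 to 2.79.

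At 4 and 12 h most members were below both 0 h libraries, and at 28 h more were above both than below. On TMM-scaled CPM, 38 of 61 members at 4 h were below both 0 h libraries, where 32.5% of all genes tested were, and 5 were above both, where 34.2% of all genes were. At 12 h, 38 were below and 0 above, against 34.5% and 35.3% of all genes. At 20 h, 14 were above and 25 below, against 40.3% and 39.3%. At 28 h the order was turned, with 30 above and 13 below, against 39.6% and 39.0%. At 42 h, 18 were above and 21 below, against 43.5% and 43.2%. On library totals 37 and 38 members were below at 4 and 12 h, against 23.6% and 30.4% of all genes, and 5 and 2 were above, against 42.9% and 39.0%. At 20 h these were 26 below and 12 above, against 41.6% and 38.1%. At 28 h 15 were below and 20 above, against 44.2% and 35.0%, and at 42 h 31 were below and 8 above, against 54.2% and 32.8%. The share of members above both at 28 h was thus over that of all genes on TMM scaling only. The median log2 ratio to the 0 h mean with TMM scaling was -0.35 (4 h), -0.29 (12 h), -0.13 (20 h), 0.15 (28 h) and -0.01 (42 h). The median of all genes stayed within 0.02 of 0 at each of these times, which largely follows from that scaling. On library totals the members were at -0.25 at 42 h, and all genes were there too, at -0.25. With 1 library per later time these positions carry no test.

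**Figure D3:**
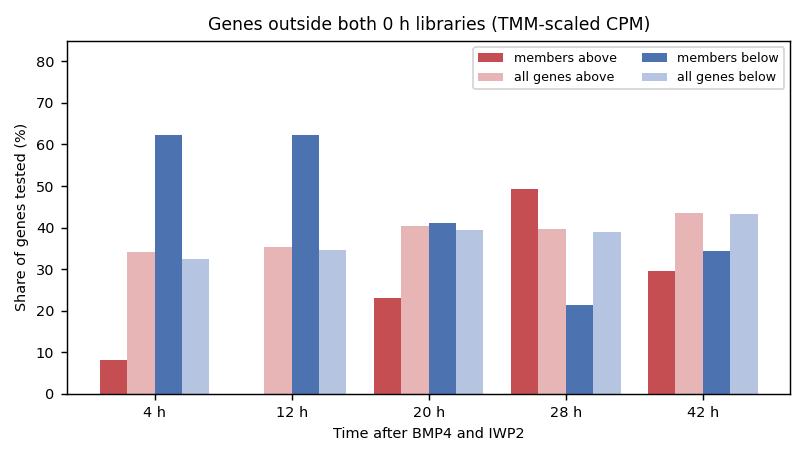
Percent of the 61 members and of all 15976 genes tested that lay above or below both 0 h libraries at each later time, on TMM-scaled CPM. At 4 and 12 h, 38 members were below both, and at 28 h 30 were above both. All genes were split nearly evenly, which largely follows from that scaling.

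The families differed in their course. The summed H2B level was 2028 and 2165 CPM in the 0 h libraries and then 1579 (4 h), 1572 (12 h), 1705 (20 h), 1944 (28 h) and 1493 CPM (42 h). Every later library was below both at 0 h, and with TMM scaling all but 28 h were, at 1997 against 0 h values that averaged 2052 ± 79 (SD, n = 2). The summed H3 level was 1167 and 2021 CPM at 0 h and 1835 at 42 h. The later H3 values all lay within that wide 0 h gap, but with TMM scaling 28 h at 1969 and 42 h at 2116 CPM were above both 0 h libraries, which were at 1148 and 1968. The summed H2A level was 1866 and 2262 CPM at 0 h and 2000 at 42 h. The H4 sum was 1428 and 2087 CPM at 0 h and 1389 at 42 h, which is below both, but with TMM scaling it lay between them. The H1 sum was 1363 and 1880 CPM at 0 h and 1364 at 42 h, so it ended at the lower 0 h value.

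A linear trend with hours was fitted over all 7 libraries with edgeR's quasi-likelihood test on TMM-scaled counts, with Benjamini-Hochberg adjustment over 15976 genes. It tested the 61 members that averaged at least 1 CPM over all libraries. The other 5, H1-6, H2AC1, H2BC1, H2BC3 and H4C7, were below that filter. Of the 61 members, 6 rose and 2 fell at an adjusted p under 0.05, while 36.7% of all genes were called, 19.2% higher and 17.5% lower. In this fit the share of called members was below that background. With library totals 2 rose and 7 fell, and of all genes called 34.3% were then higher, in place of 52.4%. The median trend of the members was 0.15 on the log2 scale over 42 h, and that of all genes was -0.005. By family, 4 of 13 H3 genes rose and 1 fell, 1 of 15 H2A genes rose, and 1 of 5 H1 genes rose and 1 fell. Of the H2B and H4 genes, 0 of 15 and 0 of 13 were called, and 1 each had an unadjusted p under 0.05. Of all 15976 genes, 7554 had an unadjusted p under 0.05. Under DESeq2 6 members rose and 3 fell, against 3342 and 3249 of all 15976 genes. With limma on FPKM 0 rose and 8 fell, against 2102 and 3750. Without 0 h replicate 2 the count became 18 rising and 2 falling, against 3433 and 3188 of all genes. A higher share of members than of all genes then rose. Without the 42 h library it was 2 and 1, against 1935 and 1408. Without 4 h it was 2 and 2, against 2372 and 2098. Without 12 h or 28 h it was 3 and 1, against 2600 and 2331 (12 h) and 2449 and 2048 (28 h).

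Among the risers, H2AC20, a core H2A gene (chr1:149886918-149887411), was at 157 and 185 CPM in the 0 h libraries and then at 174 (4 h), 175 (12 h), 221 (20 h), 260 (28 h) and 231 CPM (42 h). The last 3 libraries were above both at 0 h. Its slope was 0.020 ± 0.004 (SE) log2 units per hour, with an edgeR adjusted p of 0.010, and it was called in 15 of 16 alternative settings. H3C4, an H3.1 gene on chromosome 6 (chr6:26196784-26197286), was at 42.0 and 46.9 CPM in the 0 h libraries and then at 38.5 (4 h), 35.5 (12 h), 39.2 (20 h), 51.7 (28 h) and 80.1 CPM (42 h). It stood above both 0 h libraries only at 28 and 42 h, and its log2 ratio of 0.85 at 42 h was the highest of the 58 members averaging at least 10 CPM. Its edgeR adjusted p was 0.024, and without the 42 h library the trend was no longer called, with an adjusted p of 0.52.

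H3C7 was at 62.9 and 87.5 CPM in the 0 h libraries and then at 79.4 (4 h), 88.6 (12 h), 121 (20 h), 121 (28 h) and 107 CPM (42 h), with an edgeR adjusted p of 0.016. All 4 libraries from 12 h on were above both at 0 h. H1-2, a somatic linker histone, was at 207 and 210 CPM at 0 h and 245 at 42 h, with an adjusted p of 0.031. H3C2 was at 133 and 187 CPM at 0 h and 197 at 42 h, and H3C10 at 73.4 and 113 at 0 h and 118 at 42 h, with edgeR adjusted p-values of 0.038 and 0.045. These 3 were the least stable of the risers. H1-2 was called in 8, H3C2 in 7 and H3C10 in 5 of 16 alternative settings. H3C15, which had the second highest log2 ratio at 0.52, was at 194 and 465 CPM at 0 h and 473 at 42 h and was not called (edgeR adjusted p = 0.11).

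Both fallers were members of low level. H1-1, a linker histone known from thymus and testis (chr6:26017032-26017787), was at 3.19 and 2.82 CPM in the 0 h libraries and then at 5.45 (4 h), 1.90 (12 h), 1.20 (20 h), 0.677 (28 h) and 0.114 CPM (42 h). The 42 h value is 7 counts, against 121 and 201 counts at 0 h. Only the 4 h library was above both at 0 h, and each later one was lower than the one before. Its slope was -0.10 ± 0.02 (SE) log2 units per hour, its edgeR adjusted p was 0.0016, and it was called in all 15 alternative settings. H3C3 was at 1.03 and 1.46 CPM in the 0 h libraries and then at 2.03 (4 h), 1.13 (12 h), 1.25 (20 h), 0.660 (28 h) and 0.327 CPM (42 h). Its edgeR adjusted p was 0.032, and it was called in 9 of 15 alternative settings.

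These 2 genes belong to a wider set at low level. Of 66 members, 8 averaged under 10 CPM. At 42 h, 7 of these 8 were below both 0 h libraries on either scaling. Of the genes averaging at least 1 CPM, 54.2% were on library totals and 43.2% on TMM. H1-6, the testis linker histone, was at 0.711 and 0.897 CPM at 0 h, 1.15 at 4 h and 0.114 at 42 h. H2BC1, the testis H2B, was at 0.263 and 0.519 CPM at 0 h and 0 at 42 h. H2BC3 was at 0.395 and 0.757 CPM at 0 h and 0.147 at 42 h. H2AC1, the testis H2A, was at 0.105 and 0.126 CPM at 0 h and 0.0163 at 42 h. These are 4, 9 and 1 counts, the last under the limit that 3 counts set. H4C1, at 4.22 and 6.49 CPM in the 0 h libraries, was at 2.84 CPM at 42 h and was not called (edgeR adjusted p = 0.41). The eighth, H4C7, was listed at 0 at 0 h and reached at most 0.0538 CPM, near the limit that 3 counts set. H1-6, H2BC1, H2BC3, H2AC1 and H4C7 averaged under 1 CPM and so carry no test. The shares given here for other genes leave out genes under 1 CPM, so they are no like background for these members. At 4 h, 7 of the 8 were above both 0 h libraries on library totals and 6 on TMM. Of the genes averaging at least 1 CPM, 42.9% and 34.2% were. H4C7 was at 0 at 0 h, so any read places it above, and H2AC1 had 7 counts at 4 h.

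**Figure D4:**
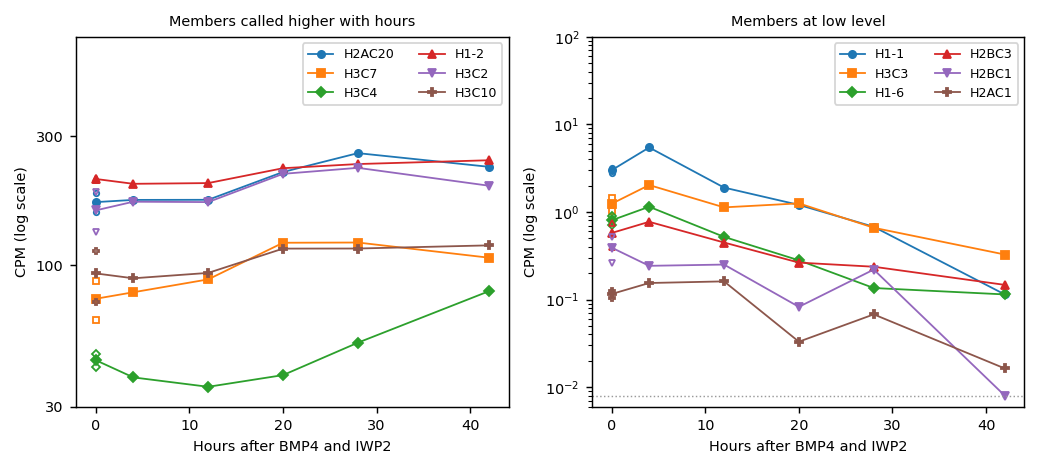
CPM on log scales against hours for the 6 members called higher (left) and 6 members of low level (right); lines join the 0 h mean to each later library, and open symbols at 0 h are the 2 single libraries. H3C4 reaches 80.1 CPM and H1-1 falls to 0.114 CPM at 42 h, and a level of 0 (H2BC1 at 42 h) is drawn on the dotted line.

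Among members averaging at least 10 CPM, the lowest ratios at 42 h belonged to H2AC16, H2BC14 and H2BC7. H2AC16 was at 97.6 and 99.3 CPM in the 0 h libraries and then at 68.1 (4 h), 70.0 (12 h), 73.7 (20 h), 71.1 (28 h) and 43.0 CPM (42 h). Every later library was below both at 0 h. It was not called on TMM-scaled counts (edgeR adjusted p = 0.057) but was on library totals, with an adjusted p of 0.017. H2BC14 was at 186 and 223 CPM at 0 h and 96.8 at 42 h, with edgeR adjusted p-values of 0.079 and 0.023 on the 2 scalings. H2BC7 was at 143 and 147 CPM at 0 h and 76.5 at 42 h and was called on neither (0.22 and 0.063, edgeR).

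The highest FPKM in each family went to H1-5, at a mean of 1380 FPKM over the time series, H2AC18 at 1151, H2BC18 at 951, H3C15 at 1403 and H4C12 at 1594. H2AC18, H3C15 and H4C12 belong to pairs that share reads, described below, so their ranks depend on how the estimates split those reads. None of these 5 was called with hours. H1-5 was at 626 and 1073 CPM at 0 h and 738 at 42 h. H4C12 was at 212 and 368 CPM at 0 h, 136 at 4 h and 178 at 42 h. H2BC18 was at 316 and 250 CPM at 0 h and 151 at 42 h, below both (edgeR adjusted p = 0.33).

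Many H2A and H2B genes share a promoter region head to head. Within the clusters 12 pairs of members start in opposite directions within 500 bases, 170 to 319 bases apart by annotated gene span. The pair at 319 bases, H3C12 with H2BC17, rests on the longer span of H3C12. Its shortest coding transcript starts at chr6:27890826, and H2AC17 starts nearer, 240 bases from H2BC17. The other 11 pairs join an H2A with an H2B gene. In the 10 such pairs with both members tested, the H2A partner had the higher 42 h over 0 h ratio in 8. The difference, H2A minus H2B, had a median of 0.37 and ran from -0.56 to 0.83 on the log2 scale. H2AC20 and H2BC21 start 236 bases apart, and their ratios at 42 h were 0.43 and -0.39. H2AC14 and H2BC14 were at -0.35 and -1.08, and H2AC7 and H2BC7 at -0.50 and -0.92. H2AC15 at -0.57 and H2BC15 at -0.01 went the other way. These are differences within pairs, do not depend on the scaling of the libraries and carry no test. H2AC13 and H2AC14 may share reads, as described below, so their ratios may depend on how the estimates split those reads.

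Promoter letters are shown because these members share more of them than most genes. The RefSeq promoter table of GRCh38.p14 holds 61 of the 66 members, each with 250 bases before and 50 after the start. CCAAT, the CCAAT-box core, was found on either strand in 85.2% of these members and 39.7% of all 27305 genes in the table. The TATA-box motif, written TATAAA, was in 68.9% and 13.99%. ATTTGCA, the core of the octamer bound by POU factors such as OCT1, was in 44.3% and 5.13%. The octamer core was in 11 of 15 H2A and 14 of 17 H2B genes, 2 of 11 H3 genes, and 0 of 6 H1 and 0 of 12 H4 genes. The windows of head-to-head partners overlap, so the same match can count for both an H2A and an H2B gene. In the 100 bases before the start, H2BC11 and H2BC21 hold the octamer core, and their partners H2AC11 and H2AC20 do not. H2AC17 does hold it there. CCAAT was in all the H1, H2A, H2B and H3 promoters and in 3 of the 12 H4 promoters. None of these 3 motifs contains another, and a match is a description of letters, not a site. The 100 bases before the start follow for 3 members described above, with matches on either strand in capitals:
H2AC20: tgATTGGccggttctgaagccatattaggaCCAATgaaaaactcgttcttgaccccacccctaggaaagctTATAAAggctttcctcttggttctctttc
H1-1: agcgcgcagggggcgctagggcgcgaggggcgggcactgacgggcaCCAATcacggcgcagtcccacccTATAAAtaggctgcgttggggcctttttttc
H4C5: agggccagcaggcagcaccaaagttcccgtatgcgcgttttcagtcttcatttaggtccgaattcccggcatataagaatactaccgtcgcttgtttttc
They lie at chr1:149886818-149886917 (plus strand), chr6:26017788-26017887 (minus strand) and chr6:26204510-26204609 (plus strand). H2AC20, which rose, and H1-1, which fell, both hold CCAAT and TATAAA in this stretch, and H4C5, which was not called, holds neither. H3C15, which was not called either, holds both there, so these lines do not set called members apart.

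Several members are so alike that reads cannot be assigned to a single gene. In 5 pairs the transcripts are at least 95% identical over the shorter one: H2AC18 with H2AC19 at 100%, H3C14 with H3C15 at 100%, H4C14 with H4C15 at 100%, H4C11 with H4C12 at 99.5% and H2AC13 with H2AC14 at 96.2%. The split between such partners in the deposited estimates changed from library to library, so the sum of a pair is the safer value. In total RNA H2AC18 and H2AC19 summed to 427 and 567 CPM at 0 h and 517 at 42 h (edgeR adjusted p = 0.12). H3C14 and H3C15 summed to 374 and 804 CPM at 0 h and 743 at 42 h (edgeR adjusted p = 0.15). With each of the 5 pairs summed, 6 members rose and 2 fell, as before, and no pair was called.

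In the dose series the members gave little signal. The trend was fitted on LDN step, from 0 for no LDN to 4 for 300 nM, over 5 polyA libraries, with the same edgeR test over 14907 genes. Of the 66 members 21 passed 1 CPM on average. Of these, 1 rose and 0 fell, with 5 at an unadjusted p under 0.05, while 21.3% of all genes were called, 10.4% higher and 10.9% lower. Of all 14907 genes, 5040 had an unadjusted p under 0.05. DESeq2 called 0 of the 21 members and 2389 of all genes. Summed over all 66 members, the libraries from 0 to 300 nM LDN held 130, 129, 120, 123 and 121 CPM, and the untreated library held 127. Without the 300 nM library 0 members were called, and without the 0, 10 or 30 nM library 3 were. Of all genes 2107 were called without 300 nM, and 2005, 2790 and 2968 without 0, 10 and 30 nM.

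The member called was H2AC18 (edgeR adjusted p = 9.2e-07), and it belongs to an identical pair. H2AC18 was at 0 CPM at 0, 10, 30 and 100 nM, at 5.34 at 300 nM and at 4.74 untreated. H2AC19 was at 5.08, 5.24, 5.93 and 5.85 CPM at the first 4 doses and at 0 at 300 nM and untreated. Where the estimate of 1 was 0, the other held all the counts. The pair summed to 5.08, 5.24, 5.93, 5.85 and 5.34 CPM from 0 to 300 nM and to 4.74 untreated, with an edgeR adjusted p of 0.62. H4C11 and H4C12 were split in a similar way, with H4C12 at 0, 8.97, 0, 0 and 1.36 CPM from 0 to 300 nM and H4C11 at 12.2, 2.06, 11.2, 13.3 and 13.03. Their sums were 12.2, 11.03, 11.2, 13.3 and 14.4 CPM (edgeR adjusted p = 0.095).

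With pairs summed, the member count became 0 rising and 1 falling among 19. The falling pair was H4C14 with H4C15, both H4 genes with an extended transcript. Their sum was 24.5, 23.4, 20.6, 21.1 and 19.1 CPM from 0 to 300 nM LDN and 18.3 CPM untreated. It was highest without LDN and lowest at 300 nM among the 5 doses, and the untreated library was lower still. The slope was -0.08 ± 0.02 (SE) log2 units per step, with an edgeR adjusted p of 0.014. Summing was chosen after these splits were seen.

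**Figure D5:**
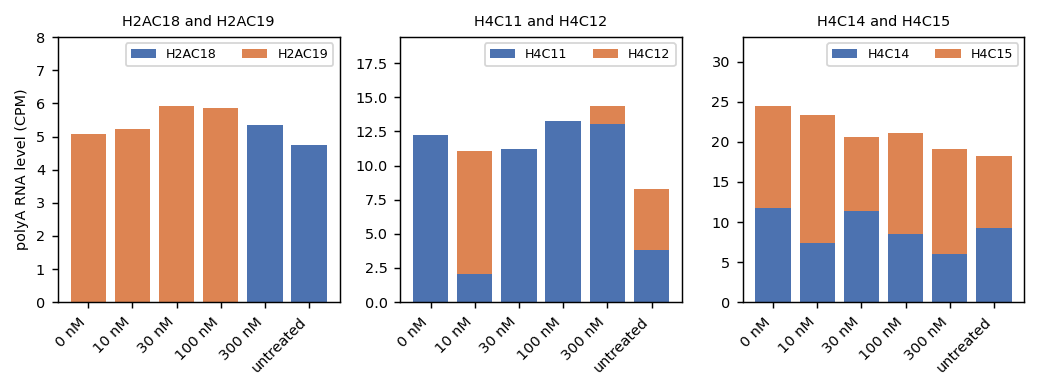
CPM in the 6 polyA libraries for 3 near-identical pairs, stacked, with LDN dose along the axis and the untreated library last. The split between partners changes from bar to bar, while the H2AC18 and H2AC19 total stays between 4.74 and 5.93 CPM.

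The members highest in polyA RNA were H2AC6, H4C15, H2BC12, H4C11 and H4C14. H2AC6 was at 24.1, 20.8, 18.8, 20.1 and 18.9 CPM from 0 to 300 nM LDN and at 23.4 CPM untreated. It was highest without LDN, but its trend was not called (edgeR adjusted p = 0.056). H2BC12 was at 9.85, 8.71, 9.90, 8.94 and 9.90 CPM from 0 to 300 nM and at 15.2 untreated, above the other 5 libraries (edgeR adjusted p for the doses = 0.86). H1-2 was at 7.27, 7.71, 6.98, 7.66 and 6.40 CPM and at 6.99 untreated. H3C8, the H3 gene highest in FPKM, was at 1.32 CPM without LDN and 0.641 untreated. By FPKM the highest of each family were H1-2, H2AC6, H2BC12, H3C8 and H4C11.

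BMP4 without LDN was also set beside the untreated library, with 1 library each and no test. The median log2 ratio over the 21 members was 0.06, and over all genes it was 0.11. With TMM scaling the members were at -0.028 and all genes at 0.025. For members of at least 10 CPM the median on library totals was 0.51. That is the value of H4C15 alone, between H2AC6 at 0.04 and H4C11 at 1.67. H4C15 and H4C11 belong to pairs that share reads. Past a log2 ratio of 1, 3 members were higher and 2 lower, where 6.78% and 1.90% of all genes were. Those 5 were H2AC19, H4C11 and H3C8 on the higher side and H2AC18 and H4C12 on the lower, so 4 of them belong to the pairs whose reads are split. The summed H2B level was 32.9 CPM with BMP4 and 40.8 untreated, and the summed H4 level was 42.1 and 31.3. The untreated library had the fewest counts, 15600645 against 28742320, and a mitochondrial share of 7.89% against 4.22%, and the part of either in these differences was not tested.

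Genes that make and handle histone mRNA moved in both directions with hours. Values below are the 0 h mean and then the 42 h library. Of 17 tested, 3 rose and 2 fell. Over all 94 genes of the related lists 15 rose and 15 fell, where 19.2% of all genes were called higher and 17.5% lower, and the counts of each list below stand against those shares. With library totals 9 rose and 34 fell. SLBP averaged 41.3 ± 0.6 CPM (SD, n = 2) in the 0 h libraries and then rose to 93.4 CPM by way of 36.2 (4 h), 38.4 (12 h), 43.7 (20 h) and 65.4 CPM (28 h) (edgeR adjusted p = 0.0032). It was above both 0 h libraries from 20 h on. LSM11, a subunit of the U7 snRNP that cleaves histone pre-mRNA, went from 7.77 ± 1.57 CPM (SD, n = 2) to 11.2 at 42 h (edgeR adjusted p = 0.031). NPAT, the coactivator that binds histone gene clusters in S phase, went from 47.2 ± 15.6 CPM (SD, n = 2) to 21.2 and fell (edgeR adjusted p = 0.029). CASP8AP2 (FLASH), a partner of NPAT and of U7 processing, went from 52.7 ± 4.0 CPM (SD, n = 2) to 30.3 and fell (edgeR adjusted p = 0.047). LSM10, the partner of LSM11, was at 22.2 ± 4.0 CPM (SD, n = 2) and 16.8, and ZNF473, a zinc finger protein of histone pre-mRNA processing, at 15.6 ± 1.4 CPM (SD, n = 2) and 13.7. Neither was called.

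Of 33 genes of DNA replication tested, 2 rose and 9 fell, where 36.7% of all genes were called in either direction, with a median log2 ratio of -0.29 at 42 h on TMM scaling, and their summed level went from 5026 ± 495 CPM (SD, n = 2) to 3615. MCM5 and MCM7, subunits of the replicative helicase, were the most abundant and were not called, MCM5 going from 660 ± 146 CPM (SD, n = 2) to 404 and MCM7 from 503 ± 127 to 430. ORC1, of the origin recognition complex, went from 86.7 ± 8.9 CPM (SD, n = 2) to 39.2 and fell (edgeR adjusted p = 0.0036). CDK2, the S-phase kinase, went from 32.2 ± 3.8 CPM (SD, n = 2) to 73.4 and rose (edgeR adjusted p = 0.00058). These values move beside the members, and their part in the members' course was not tested.

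The histone chaperones gave 2 risers and 1 faller among 12. NASP, which holds H3-H4 and linker histones, went from 449 ± 14 CPM (SD, n = 2) to 189 and fell (edgeR adjusted p = 0.0043). ASF1B, which hands H3-H4 to the replication fork, went from 22.5 ± 6.9 CPM (SD, n = 2) to 42.7 (edgeR adjusted p = 0.0060). RBBP4, a subunit of CAF-1 and other complexes, was at 301 ± 23 CPM (SD, n = 2) and 218 and was not called. Among G2 and M phase genes 1 of 16 rose and 2 fell. KIF20A, a mitotic kinesin, went from 75.8 ± 6.5 CPM (SD, n = 2) to 100.4 and rose (edgeR adjusted p = 0.018). BUB1 and CENPF, which act at kinetochores, fell, and TOP2A, which untangles chromosomes, was not called.

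Replication-independent histones gave 4 risers and 1 faller among 11 tested. MACROH2A2, a macro-domain H2A variant, went from 9.29 ± 1.40 CPM (SD, n = 2) to 41.1 (edgeR adjusted p = 0.0010). CENPA, the centromeric H3, went from 7.63 ± 0.21 CPM (SD, n = 2) to 12.8 (edgeR adjusted p = 0.0048). H2AX, the H2A variant of the DNA damage response with a stem-loop, went from 351 ± 115 CPM (SD, n = 2) to 598 (edgeR adjusted p = 0.013). H3-3B, which encodes H3.3, was at 314 ± 14 CPM (SD, n = 2) and 285 and was not called. Of the 5 cell cycle inhibitors tested 3 rose: CDKN2B from 0.224 ± 0.019 CPM (SD, n = 2) to 7.94, CDKN1A from 4.70 ± 0.35 to 10.6 and CDKN1C from 15.9 ± 5.5 to 108.3. Without the 42 h library the CDKN1C slope was -0.007 log2 units per hour (edgeR adjusted p = 0.83).

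With LDN dose 12 of the 93 genes of the related lists tested rose and 4 fell, where 10.4% of all genes were called higher and 10.9% lower. SLBP rose from 43.5 CPM without LDN to 57.0 at 300 nM, beside 54.1 untreated (edgeR adjusted p = 0.0027), and 2 of 17 genes of its list rose and 0 fell. Of the S phase genes 1 rose and 2 fell of 33, of the chaperones 4 rose of 12, and of the replication-independent histones 3 rose of 11. Of the G2 and M phase genes 1 rose and 1 fell of 16, and of the cell cycle inhibitors 1 rose and 1 fell of 4.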

How the data were processed

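The 13 libraries were ribosomal RNA-depleted (time series) or polyA-selected (dose series). The authors trimmed reads with Cutadapt. The submitters' processing notes name STAR 2.7.8a, RSEM 1.3.3 and the build GRCh38, and the annotation release and the strand setting are not given in the sources used here. The deposited tables hold RSEM expected counts per gene and, in separate tables, deposited FPKM values, both by the authors. Non-human features, 5 in number, were left out. Members and gene lists were chosen with earlier results of these data known.

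Expected counts were rounded and tested with edgeR 4.0.16 (quasi-likelihood, TMM, mean of at least 1 CPM, linear in hours or in LDN step), each table apart, and adjusted over all genes. DESeq2 1.42.0, limma 3.58.1 on log2(FPKM + 0.1), other scalings and filters and each library left out were alternatives. Log2 ratios used CPM + 0.01. No later condition had a replicate, and nothing states that the 0 h libraries were separate cultures, so p-values measure scatter about a line, which may be technical. Fits were tested on simulated data. Named members were fixed by rule: the highest FPKM per family, the 3 largest rises and falls at 42 h among members of at least 10 CPM, calls with dose, the 5 highest in polyA RNA, SLBP, NPAT, CASP8AP2, LSM10, LSM11 and ZNF473, and for each other related list the 2 with the highest CPM and the 2 with the smallest p with hours. The members called with hours and those under 10 CPM were added after seeing the data. Stem-loops, transcript ends and identities came from GENCODE 44, and promoters from RefSeq.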

Additional observations from a re-analysis of the deposited data

How the results depend on the processing

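No paired analysis was possible because only the 0 h libraries carry replicate numbers, and every other condition has 1 library. The 8 members called with hours became 5 with a filter of 5 CPM and 4 with time as a rank, and leaving out each library gave 3 to 20, the extremes being without the 42 h and without the second 0 h library. Of all genes 5865 were called, with 3343 and 6621 in these 2 fits. The related lists, with 30 calls, gave 9 to 38. With LDN dose, 1 call became 2 on library totals, 0 under DESeq2 and 2 with no filter, and 0 to 3 with a library left out. The related lists, with 16 calls, gave 4 with limma, 10 with the untreated library as step 5, and 8 to 13 with a library left out. The members' median log2 ratio at 42 h, -0.25, was -0.012 with TMM scaling and -0.36 to -0.04 from each 0 h library alone, and the summed level ranged from -0.37 to 0.04. BMP4 over untreated, 0.06, was -0.028 with TMM scaling and 0.51 at 10 CPM or more, where it is the value of H4C15 alone. As a share of summed FPKM the members took 3.398% in total RNA and 0.0518% in polyA RNA, and without mitochondrial counts 0.0132% in polyA RNA. The CDKN1C trend with hours was -0.0070 log2 units per hour without the 42 h library and at most 0.063 without another. The causes were not tested. Among named genes, of the other alternatives 1125 left the call as it was, 105 lost it and 26 gained it. Summing near-identical pairs was chosen after seeing the data. With 1 library per condition, small differences between members were not detectable, and members under 1 CPM in polyA RNA were not tested.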
